A study of Mus musculus with 8 samples.

Results

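The CCT chaperonin (chaperonin containing TCP-1, also called TRiC) is encoded by 8 mouse genes, Tcp1, Cct2, Cct3, Cct4, Cct5, Cct6a, Cct7 and Cct8. Its transcripts were followed here between sparse and crowded cultures of cells labelled as endothelial. The members were taken as every probe set of the array that the platform annotation assigns to exactly 1 gene symbol, with that symbol among the 8, which gave 13 probe sets of 12488 on the array, or 8 genes of 8251. Of the 13, 11 reached the minimum used here, 200 in the average of the 8 arrays, and were tested, and each of the 8 genes was represented among them. The study hybridised total RNA of cells labelled as mouse aortic endothelial cells to single-colour Affymetrix arrays. In 4 samples the cells came from subconfluent culture, at under 50% confluency, and in 4 from a mature confluent monolayer, and both groups used equal cell numbers. No genotype, treatment, passage or mouse strain was given in the sources used here. The sample titles number each group 1 to 4, and such a number is called an experiment here. Equal numbers were not paired in the main test. A second fit, with the number as a replicate block, treated them as pairs because their deviations correlated.

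CCT is a cytosolic folding machine built of a pair of stacked rings, in which each of the 8 related subunits occupies a fixed place. An unfolded chain enters the central cavity, and ATP hydrolysis closes a built-in lid over it. Newly made actin and tubulin are its classic clients and need it to reach their native state. The co-chaperone prefoldin hands such chains over to it. In endothelial cells, as in other cells, actin and microtubules set shape, spreading and division.

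The scale factors of the arrays ran from 3.05 to 13.3, and the number of arrays limits the precision. Of 14 endothelial markers on the array only 1, Eng, the TGF-beta co-receptor endoglin, reached a mean signal of 200, against 8 of 11 fibroblast and pericyte markers and 56.6% of all genes. Defining endothelial markers such as Pecam1, Cdh5 and Kdr were under that minimum. The label of the cells was therefore not borne out by the endothelial marker list. Smooth muscle markers were above the minimum for 3 of 7 genes, macrophage markers for 1 of 8, lymphocyte markers for 1 of 4, epithelial and mesothelial markers for 2 of 8 and red cell markers for 0 of 2. In bulk RNA, fewer cells of a type and less RNA per cell cannot be told apart. The signals are linear, scaled by the authors to a common target of 500 on each array. Differences are given as log2(signal + 50), subconfluent minus confluent, which understates the change of low signals. The test was limma's moderated test over all 6007 probe sets with sufficient signal, two-sided, with Benjamini-Hochberg adjustment and a threshold of 0.05.

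Of the 8 CCT subunit genes 1, Cct4, rose in subconfluent cells by the unpaired test, and the other 7 did not pass. In the fit with the replicate block 3 of the 8 passed, Cct4, Cct6a and Cct7. The subunit genes, each represented by its probe set with the highest mean signal, had a median log2 difference of 0.42, which is 1.33-fold, against 0.01 over all probe sets tested. The difference was positive for 7 of the 8 genes and ran from -0.03 for Cct2 to 0.56 for Cct6a. Of the 11 tested probe sets 10 had a positive difference, against 51.2% of all probe sets tested. By limma's adjusted p, 1 of the 11 was higher and 0 were lower, against 2.75% higher and 4.06% lower among all probe sets tested. An unadjusted limma p under 0.05 was found for 7 of the 11. The share of all probe sets at that level was not counted, so this count and the similar ones below have no background. With the experiment number as a replicate block 4 of the 11 were higher and 0 lower, against 9.94% higher and 11.3% lower among all probe sets tested.

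**Figure D1:**
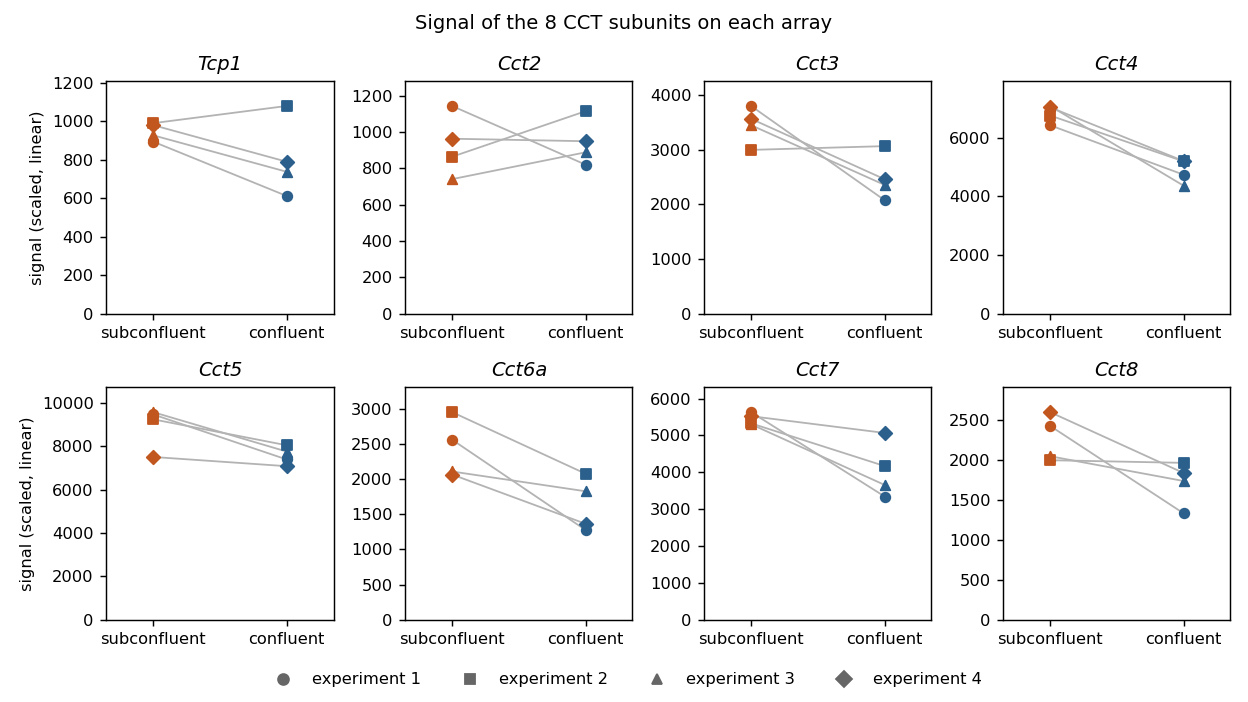
Signal of the probe set that represents each CCT subunit, on a linear axis from 0, on the 4 subconfluent arrays (left in each panel) and the 4 confluent arrays (right), with grey lines joining arrays of the same experiment. For Cct4, Cct7 and Cct8 every subconfluent array lay above every confluent one, and for Tcp1, Cct2, Cct3, Cct5 and Cct6a the groups overlapped.

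In yeast the 8 subunits fall into a side of the ring that binds ATP strongly, formed by the counterparts of Tcp1, Cct2, Cct4 and Cct5, and a side that binds it weakly, formed by those of Cct3, Cct6a, Cct7 and Cct8. The subunits are described in that order, a grouping that was chosen after the values were seen. Tcp1, Cct2, Cct4, Cct7 and Cct8 were read from the probe sets 94218_at, 160442_at, 101011_at, 160562_at and 160102_at. Cct4 encodes the delta subunit. Its signal was 6429.5, 6761.9, 7087.6 and 7042.5 on subconfluent arrays 1 to 4, against 4740.1, 5196.4, 4365.4 and 5206.7 on confluent arrays 1 to 4. All 4 subconfluent arrays were above all 4 confluent arrays. Cct4 rose 1.40-fold (log2 0.48 ± 0.13 SE, n = 4 arrays a group, limma adjusted p = 0.0470, or 0.0166 with the replicate block), with a 95% interval from 1.15-fold to 1.70-fold, and it was higher in 4 of 4 experiments. The call was close to the threshold, since 7 of the 8 fits that left out a single array lost it (adjusted p from 0.0781 to 0.114, all but the fit without confluent replicate 2).

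Cct5, the epsilon subunit, was measured by 2 tested probe sets. On 93295_at, the brighter one, it had 9471.9, 9244.5, 9576.7 and 7508.5 on subconfluent arrays and 7391.6, 8047.2, 7756.7 and 7083.0 on confluent arrays. Subconfluent replicate 4 lay inside the confluent range while the other subconfluent arrays lay above it. The log2 difference was 0.24 ± 0.13 (SE, limma adjusted p = 0.295). On 161514_at the Cct5 signal was 1364.7, 1276.3, 863.5 and 628.3 on subconfluent arrays and 703.0, 552.3, 536.4 and 534.6 on confluent arrays. Here too only subconfluent replicate 4 overlapped the confluent arrays, and both Cct5 probe sets were higher in 4 of 4 experiments. The second Cct5 probe set had the largest difference of the 11, 0.73 ± 0.23 (SE, limma adjusted p = 0.0808), and it passed with the replicate block (adjusted p = 0.0179).

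Tcp1 encodes the alpha subunit, the first of the family to be described. It had 895.0, 990.8, 927.9 and 980.7 on subconfluent arrays and 612.1, 1080.4, 738.0 and 790.2 on confluent arrays. The subconfluent arrays were close to each other, and confluent replicate 2 was above all of them. Its log2 difference was 0.25 ± 0.18 (SE, limma adjusted p = 0.413), positive in 3 of 4 experiments. Cct2, the beta subunit, had 1142.6, 863.2, 740.0 and 962.4 on subconfluent arrays and 819.3, 1114.1, 887.7 and 948.6 on confluent arrays. The groups covered the same range, and the sign was positive in 2 of 4 experiments. The Cct2 difference was -0.03 ± 0.17 (SE, limma adjusted p = 0.937), with a 95% interval from 0.755-fold to 1.27-fold, so a modest change in either direction was not detectable. Whether Cct2 differed from the other subunits was not tested.

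On the weakly ATP-binding side, Cct6a, the zeta subunit, had 2558.7, 2950.3, 2106.8 and 2063.8 on subconfluent arrays and 1274.0, 2074.1, 1825.4 and 1363.2 on confluent arrays. The groups overlapped only in that confluent replicate 2 was just above subconfluent replicate 4. The log2 difference was 0.56 ± 0.20 (SE, limma adjusted p = 0.0987), positive in 4 of 4 experiments, and it passed with the replicate block (adjusted p = 0.0275). The measurement comes from 162279_f_at, whose name marks probes shared within a sequence family. Cct7, the eta subunit, had 5633.6, 5329.1, 5304.7 and 5523.3 on subconfluent arrays and 3343.9, 4170.6, 3657.2 and 5068.5 on confluent arrays. The groups did not overlap, and the confluent arrays were far more spread than the subconfluent ones, with SDs of 158 in subconfluent and 754 in confluent cells. Its log2 difference was 0.44 ± 0.15 (SE, limma adjusted p = 0.102), positive in 4 of 4 experiments, and it passed with the replicate block (adjusted p = 0.0427). Without any single experiment the blocked Cct7 call was lost (adjusted p from 0.0596 to 0.158). The blocked Cct6a call was lost without experiment 1 or 4 (adjusted p = 0.0851 and 0.0987), and the blocked Cct4 call without experiment 3 or 4 (adjusted p = 0.0914 and 0.0636).

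Cct8, the theta subunit, had 2429.4, 1999.0, 2048.9 and 2601.5 on subconfluent arrays and 1333.0, 1965.8, 1738.5 and 1838.4 on confluent arrays. The groups were apart by the small gap between subconfluent replicate 2 and confluent replicate 2. The difference was 0.40 ± 0.17 (SE, limma adjusted p = 0.165, or 0.101 with the replicate block). Cct3, the gamma subunit, was measured by 3 tested probe sets. The brightest, 98446_s_at, had 3798.7, 2995.3, 3447.2 and 3564.0 on subconfluent arrays and 2073.9, 3063.9, 2353.8 and 2458.0 on confluent arrays. Only experiment 2 put the confluent array above its subconfluent partner. Its log2 difference was 0.47 ± 0.16 (SE, limma adjusted p = 0.0908). The second Cct3 probe set, 98153_at, had 1973.2, 1701.3, 1967.7 and 2032.8 on subconfluent arrays and 1091.9, 1812.3, 1365.8 and 1184.6 on confluent arrays. It too was higher in every experiment but the second, with a difference of 0.50 ± 0.18 (SE, adjusted p = 0.102). The name of the brightest marks probes shared between transcripts, and it was used as the annotation assigns it. Whether its sequence belongs to Cct3 is in doubt, since the accession listed for it may be that of another gene, so the Cct3 values from it carry that doubt. The third Cct3 probe set, 161238_f_at, had 1061.8, 1388.8, 598.9 and 798.0 on subconfluent arrays and 661.4, 917.3, 889.7 and 875.6 on confluent arrays, which overlapped. Its difference was 0.14 ± 0.24 (SE, adjusted p = 0.765), positive in 2 of 4 experiments.

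The median log2 difference was 0.24 for Tcp1, Cct2, Cct4 and Cct5 and 0.46 for Cct3, Cct6a, Cct7 and Cct8. The first median depended on the Cct5 probe set, since it used 93295_at (0.24) and would be higher with 161514_at (0.73). The difference between these sides was not tested. In 3 of the 11 tested probe sets every subconfluent array was above every confluent one, against 8.34% of all probe sets tested. The subconfluent array was the higher one in 4 of 4 experiments for 6 of the 11, against 20.7% of all probe sets tested. The 2 probe sets that were not tested had too little signal to measure a difference. These were 162443_at of Tcp1, with 3.9 to 27.2 on subconfluent and 7.9 to 54 on confluent arrays, and 160459_r_at of Cct6a, with 23.5 to 42.3 on subconfluent and 18.9 to 47.3 on confluent arrays. A further probe set of the array is annotated to the pseudogene Tcp1-ps1 and was not a member. Signals of different probe sets are not on a common scale, so the levels of the subunits cannot be ranked against each other.

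**Figure D2:**
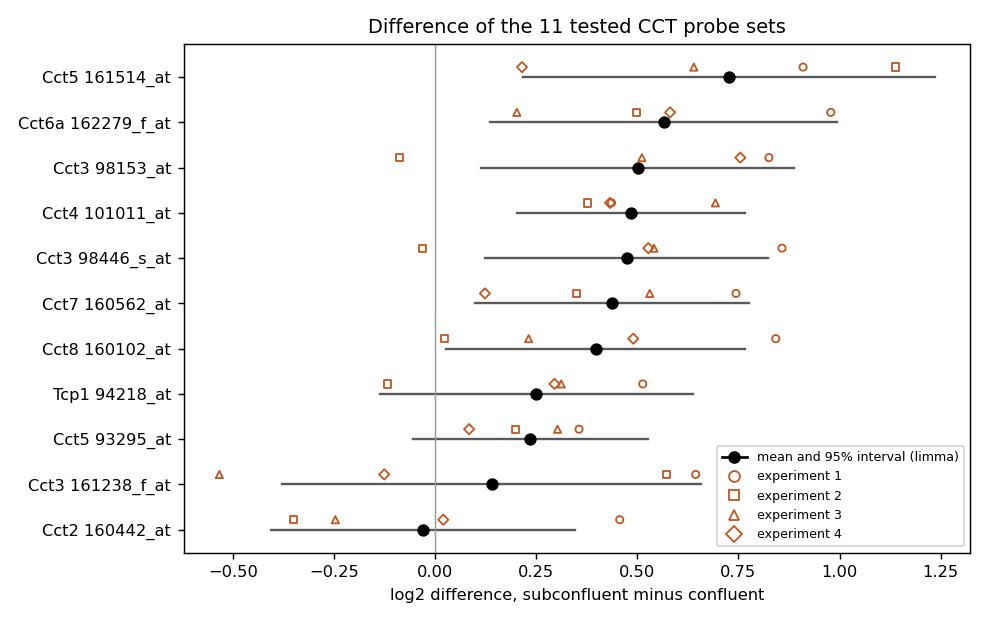
Log2 difference, subconfluent minus confluent, of the 11 tested CCT probe sets, sorted by size. Black points and bars give the limma estimate with its 95% interval, and open symbols the differences within experiments 1 to 4. Of the 11 estimates 10 are positive, and Cct2 (-0.03) is the exception.

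The size of the difference varied between experiments. In experiment 1 all 8 subunits were higher in the subconfluent array, with a median log2 difference of 0.63 and a range from 0.36 to 0.98. In experiment 2 the median was 0.11, with 5 of 8 subunits positive and a range from -0.35 for Cct2 to 0.50 for Cct6a. Experiments 3 and 4 had medians of 0.31 and 0.36, with 7 and 8 subunits positive. Experiment 2 held the confluent array with the highest subunit levels. Relative to the mean of the confluent arrays, the 8 subunits averaged 0.43, 0.34, 0.29 and 0.35 on subconfluent arrays 1 to 4 and -0.22, 0.22, -0.03 and 0.03 on confluent arrays 1 to 4. On confluent replicate 2 all 8 subunits were above the confluent mean, and on confluent replicate 1 none was.

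Other gene lists moved over the same arrays. On the same relative scale, mitotic genes such as the kinase gene Cdk1 and the survivin gene Birc5 stood at 0.74 to 0.80 on the subconfluent arrays, at -0.80 on confluent replicate 1 and at 0.52 on confluent replicate 2. Myc and nucleolar genes of ribosome production stood at 0.63 to 0.93 on the subconfluent arrays, at -0.26 on confluent replicate 1 and at 0.32 on confluent replicate 2. Confluent replicates 1 and 2 were thus at the low and the high end of the confluent arrays for the CCT subunits and for both of these lists. They were so too for the tubulins, prefoldin and the mitochondrial chaperonin. For the actins, cytosolic chaperones, CCT cofactors, tubulin cofactors and other CCT clients they were not. The fibroblast and pericyte list lay at -1.33 to -0.93 in subconfluent cells and at -0.26 to 0.59 in confluent cells, with summed signals of 26205 to 39811 in subconfluent and 54529 to 80488 in confluent cells, and 4 of its 8 genes with sufficient signal fell, against 4.39% of all genes tested. Endothelial markers summed to 1252 to 1595 in subconfluent and 1517 to 1977 in confluent cells. The part of these shifts in the CCT values was not tested.

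**Figure D3:**
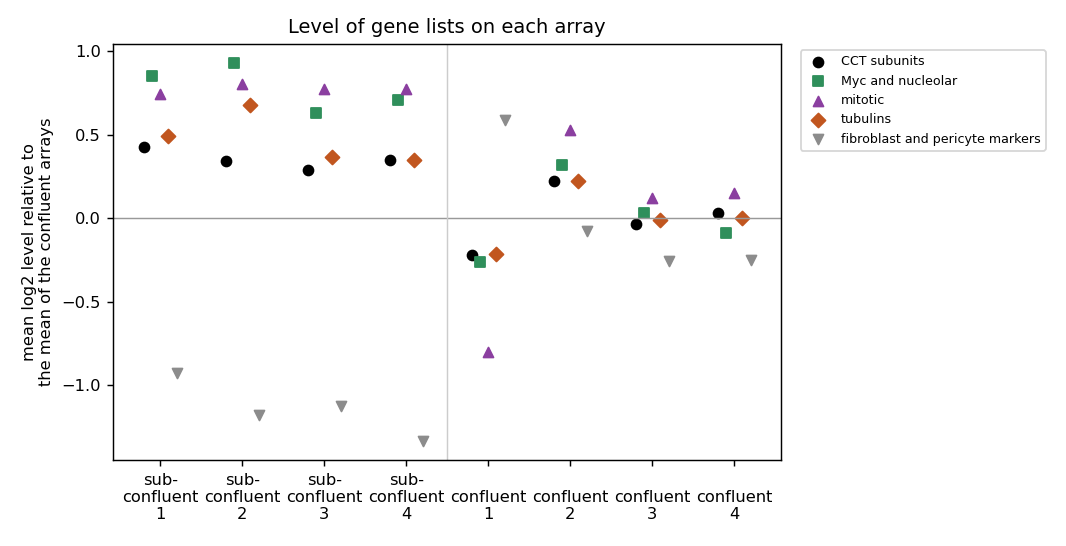
Mean log2 level of 5 gene lists on each array, relative to the mean of the confluent arrays (y axis), for the 4 subconfluent arrays (left) and the 4 confluent arrays (right). The CCT subunits (black circles) lay between 0.29 and 0.43 on the subconfluent arrays, above confluent replicate 2, the highest confluent array, at 0.22.

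Chips of 4 lots were used. Lot A held subconfluent replicate 1 and confluent replicate 1, while lot C held subconfluent replicates 3 and 4 and confluent replicate 3. Lot B held only confluent replicates 2 and 4 and lot D only subconfluent replicate 2, so for these arrays lot and group cannot be told apart, and the fixed lot block rests on lots A and C alone. Within lot A the median difference of the subunits was 0.63, with 8 of 8 positive. Lot A is experiment 1 alone, so this repeats the value given for that experiment. Within lot C the median was 0.37, with 7 of 8 positive. With the lot as a fixed block the median was 0.55 and 3 probe sets were higher, those of Cct3 (98446_s_at, 0.69, limma adjusted p = 0.0427), Cct4 (0.58, adjusted p = 0.0435) and Cct7 (0.64, adjusted p = 0.0424). The second Cct3 probe set, 98153_at, did not pass with that block (0.66, adjusted p = 0.0816).

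The windows before the transcription starts of the subunits are shown because the subunits are compared as a group and each gene has its own promoter. RefSeq starts on GRCm38.p6 were matched for 7 of the 8 genes, with 9 windows of 250 bases before a start. Cct4, the subunit that rose, was not matched, so the motif counts leave it out. The motifs searched on both strands were CCAAT (the CCAAT box, bound by NF-Y), GGGCGG (the GC box, bound by SP1), CACGTG (the E-box, bound by MYC and its partner MAX) and the heat shock element cores GAANNTTC and TTCNNGAA. The 3 windows that follow hold more than 1 CCAAT box, and capitals mark each as CCAAT or, on the other strand, ATTGG. All run 5′ to 3′ in the direction of transcription and end at the base before the start.
Cct6a, chr5:129787106-129787355, plus strand: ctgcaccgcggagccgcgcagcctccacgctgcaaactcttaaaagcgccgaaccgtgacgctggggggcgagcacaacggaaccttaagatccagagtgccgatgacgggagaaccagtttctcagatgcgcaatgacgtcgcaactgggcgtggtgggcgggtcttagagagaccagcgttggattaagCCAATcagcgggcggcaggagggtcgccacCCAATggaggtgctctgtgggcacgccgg
Cct7, chr6:85451255-85451504, plus strand: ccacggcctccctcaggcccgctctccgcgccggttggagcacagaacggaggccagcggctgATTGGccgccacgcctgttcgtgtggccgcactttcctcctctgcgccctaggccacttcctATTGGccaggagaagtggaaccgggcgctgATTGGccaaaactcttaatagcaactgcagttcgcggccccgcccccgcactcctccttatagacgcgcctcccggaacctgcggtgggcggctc
Cct3, chr3:88296885-88297134, plus strand: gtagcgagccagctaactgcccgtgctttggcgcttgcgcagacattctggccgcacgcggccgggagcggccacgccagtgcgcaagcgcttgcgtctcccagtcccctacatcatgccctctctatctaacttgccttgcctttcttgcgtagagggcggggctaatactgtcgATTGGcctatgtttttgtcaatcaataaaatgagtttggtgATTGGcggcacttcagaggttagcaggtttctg
The window of the upstream Cct2 start, shown because Cct2 had the lowest difference of the subunits, has no CCAAT box or heat shock element core and thus no capitals.
Cct2, chr10:117063853-117064102, minus strand: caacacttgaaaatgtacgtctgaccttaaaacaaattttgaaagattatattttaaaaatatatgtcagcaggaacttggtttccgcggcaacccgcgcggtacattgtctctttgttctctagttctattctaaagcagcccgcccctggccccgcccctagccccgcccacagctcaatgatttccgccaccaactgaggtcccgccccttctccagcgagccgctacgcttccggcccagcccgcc

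Cct6a had its CCAAT boxes at -59 and -29, Cct7 at -187, -125 and -95, and Cct3 at -74 and -33, where -1 is the last base before the start. Tcp1 had 1, at -132. The windows of Cct5, Cct8 and the downstream Cct2 start had none, like the Cct2 window shown. Whether these motifs go with the differences of the subunits was not tested. In all, 4 of the 9 windows held a CCAAT box, against 33.8% of 32851 windows of the same length in the RefSeq table. The GC box was in 8 of the 9 windows, against 32.7% of all windows, and the GC content of the 9 windows ran from 45.2% to 66.8%, against a median of 52.4% over all. The E-box was in 0 of the 9 windows, against 6.02% of all. The core GAANNTTC was in 1 window, of the downstream Cct2 start, and TTCNNGAA in 1, of the upstream Cct5 start at -34, against 6.69% and 7.17% of all windows. Some windows of the table share sequence, and a match says only that the letters are there.

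Prefoldin, which delivers unfolded actin and tubulin to CCT, had 5 subunits on the array, of which 3 had sufficient signal. None of the 3 passed limma's test (2 at an unadjusted p under 0.05), with a median log2 difference of 0.40. Pfdn6 had a signal of 2613 ± 268 in subconfluent and 1763 ± 390 in confluent cells (SD, n = 4), a difference of 0.58 ± 0.18 (SE, limma adjusted p = 0.0766, or 0.0443 with the replicate block). Pfdn2 had 1330 ± 149 in subconfluent and 994 ± 74.0 in confluent cells, a difference of 0.40 (adjusted p = 0.113). Both were higher in 4 of 4 experiments, as were 20.7% of all probe sets tested. In both every subconfluent array was above every confluent one, as in 8.34% of all probe sets tested. Vbp1 was 0.16 (adjusted p = 0.613). The phosducin-like cofactors of CCT, Pdcl3 and Txndc9, differed by 0.06 and 0.11 (adjusted p = 0.893 and 0.732). The prefoldin-like genes Pdrg1 and Uri1 differed by 0.05 and -0.45 (adjusted p = 0.893 and 0.285).

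Among the clients of CCT, tubulin transcripts gave the most calls. Of 12 tubulin genes with sufficient signal 4 rose and 0 fell, against 2.83% and 4.39% of all genes tested. With the replicate block 6 rose and 0 fell, against 9.94% higher and 11.3% lower among all probe sets tested. The median log2 difference of the tubulins was 0.44. Microtubule genes are a category that the study named for these samples, so the list is not independent evidence of direction. Tuba1a had a signal of 18444 ± 8441 in subconfluent and 7787 ± 2513 in confluent cells (SD, n = 4) and rose by 1.19 (limma adjusted p = 0.0328). Tubb6, Tubb5 and Tuba1c rose by 1.03, 0.84 and 0.81 (adjusted p = 0.0308, 0.0197 and 0.0413), and Tubb2a was 0.41 (adjusted p = 0.102). These probe sets carry marks of shared or relaxed probe choice, so related tubulins may add to their signal. The tubulin and CCT medians, 0.44 and 0.42, were close, and their difference was not tested.

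Of 6 actin and actin-related genes with sufficient signal 5 had a positive difference and 1, Actb, a negative one. Their median log2 difference was 0.33. None passed limma's test (1 at an unadjusted p under 0.05). With the replicate block 2 were higher and 1 lower, against 9.94% higher and 11.3% lower among all probe sets tested. Actg1, cytoplasmic gamma-actin, had 20380.3 ± 4711 in subconfluent and 17846 ± 1835 in confluent cells (SD, n = 4), a difference of 0.17 (adjusted p = 0.563). Acta2, smooth muscle alpha-actin, was 1.14 (adjusted p = 0.228, or 0.0172 with the block) and Actr3, a subunit of the ARP2/3 complex, 0.55 (adjusted p = 0.0992, or 0.0128 with the block). Actb was -1.10 ± 1.22 (SE, adjusted p = 0.632, or 0.0222 with the block) on a probe set of the shared kind. Its signal was 1266 ± 1385 in subconfluent and 2109 ± 1981 in confluent cells (SD, n = 4). Actb had 1 other tested probe set, whose value is not given here, so its sign rests on a single erratic probe set. Actc1 was 0.49 (adjusted p = 0.389).

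Where 2.83% of all genes tested rose, 1 of 9 further clients with sufficient signal did. This was Cdc20, an activator of the anaphase-promoting complex that CCT folds, with 3212 ± 333 in subconfluent and 1745 ± 581 in confluent cells (SD, n = 4, log2 0.92, limma adjusted p = 0.0444). The mitotic kinase gene Plk1 was 0.76 (adjusted p = 0.175, or 0.0343 with the replicate block) and Mlst8, a subunit of the mTOR complexes, 0.31 (adjusted p = 0.309). The transcription factor gene Stat3 was -0.53 (adjusted p = 0.166, or 0.0327 with the block) and the sphingosine kinase gene Sphk1 -1.54 (adjusted p = 0.0842, or 0.00308 with the block), so members of the list lay on both sides. Of the tubulin cofactors, which assemble tubulin dimers after CCT releases the chains, 4 had sufficient signal and 0 passed (0 at an unadjusted p under 0.05). Tbca, Tbcb and Arl2 were 0.22, 0.30 and 0.08, and Tbce was -0.33 (adjusted p from 0.353 to 0.848).

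**Figure D4:**
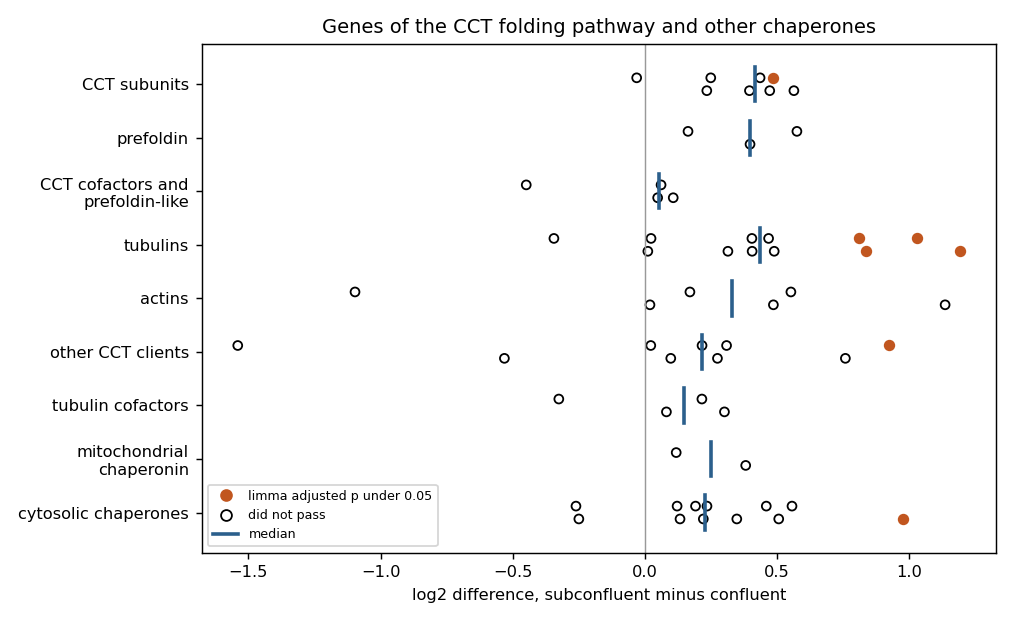
Log2 difference, subconfluent minus confluent, of each gene with sufficient signal in 9 lists around CCT (rows), with filled points for a limma adjusted p under 0.05 and a blue bar at each median. The CCT and prefoldin medians were 0.42 and 0.40, and the tubulins held 4 of the 7 filled points.

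Hspd1 and Hspe1, the mitochondrial chaperonin and its lid, had differences of 0.12 and 0.38 (limma adjusted p = 0.780 and 0.202). Of 12 cytosolic chaperone genes with sufficient signal 1 rose and 0 fell, against 2.83% and 4.39% of all genes tested. With the replicate block 4 rose, against 9.94% of all probe sets tested. The median of the 12 was 0.23. Hsph1, a nucleotide exchange factor of HSP70, had 3036 ± 380 in subconfluent and 1547 ± 428 in confluent cells (SD, n = 4) and rose by 0.98 (adjusted p = 0.0197). Hsp90aa1 was 0.56, the HSP40 gene Dnajb1 0.51, Stip1, which links HSP70 to HSP90, 0.46, and Bag1 0.35 (adjusted p = 0.116, 0.0618, 0.160 and 0.254). Of these, Hsp90aa1, Dnajb1 and Stip1 passed with the replicate block (adjusted p = 0.00928, 0.0341 and 0.0493).

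Of the Myc and nucleolar genes 6 of 11 rose and 0 fell, against 2.83% and 4.39% of all genes tested. With the replicate block 9 of the 11 rose, against 9.94% of all probe sets tested. Ebna1bp2, Mybbp1a, Bop1, Nop56 and Myc were 1.03, 1.22, 1.07, 1.01 and 0.89 (limma adjusted p from 0.0115 to 0.0324). Of the 14 mitotic genes 9 rose with the replicate block, against the same 9.94%. Without the block 1 rose and 0 fell, against the same 2.83% and 4.39%. That 1 was Birc5 (0.99, adjusted p = 0.0444), beside Cdk1, Bub1, Top2a and Mad2l1 at 0.96, 1.00, 0.81 and 0.88 (adjusted p from 0.0532 to 0.0651).

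The profile of the 8 subunits over the 8 arrays was compared with that of every other tested probe set that has 1 gene symbol by the root mean square difference of mean-centred log2 values. The nearest was Bcl2l13, a mitochondrial BCL2 family gene, at 0.0611, against a median distance of 0.348 over all such probe sets. Next came the chromatin remodelling gene Baz1b at 0.0694, the mRNA export gene Rae1 at 0.0724, Coq4, of coenzyme Q synthesis, at 0.0738 and Nsmce4a, of the SMC5/6 complex, at 0.0770. The RNA-binding protein gene Tardbp, Tmem126a and the proteasome subunit gene Psmd6 followed, at 0.0802, 0.0811 and 0.0818. None of these 8 genes passed limma's test (adjusted p from 0.110 to 0.458), and their log2 differences ran from 0.22 to 0.45. The single subunits lay between 0.104 (Cct3) and 0.226 (Cct2) from their own mean profile.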

How the data were processed

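RNA of 4 subconfluent and 4 confluent cultures was measured on 1 array each. Each probe set has a linear signal from the Affymetrix statistical algorithm, which the authors brought to a common target of 500 per array, per the labels. The version of the software was not given in the sources used here. Control probe sets (66) were left out, and 6007 of 12422 probe sets passed the minimum of 200 in the average signal. In the platform annotation 10855 probe sets have 1 gene symbol, 396 have several and 1237 are unnamed. An offset of 50 was added before taking log2, with no further normalization. The groups were compared with limma 3.58.1 (R 4.3.3; eBayes with variance trend, 6 residual degrees of freedom), adjusted over all probe sets tested, and the fit was tested on simulated data. The p-values measure the spread between these samples.

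Arrays of the same experiment number had deviations from their group means that correlated at 0.486, 0.357, 0.516 and 0.348 across probe sets, against at most 0.0681 for other numbers. Deviations from a group mean cancel within the group, so positive values for equal numbers push the others down, and this gap is partly built in. A fit with the number as a replicate block was therefore run only beside the unpaired one. The labels number the samples of each group but, beyond the chip lot, do not say what a pair shares. The lot was the same within experiments 1 and 3 and differed within experiments 2 and 4. The genes named were all members, every tested gene of the related lists of 7 or fewer genes, the 5 with the smallest p of longer lists, and the 8 nearest profiles. Marker genes are named beyond that. The members and lists were chosen with earlier results of these data known. Tables and plots used Python 3.11.15, pandas 2.3.3, numpy 2.4.6 and matplotlib 3.10.9. Alternatives were other pseudocounts, filters, normalizations, blocks, variance models and probe set choices, and fits without single arrays or experiments.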

Additional observations from a re-analysis of the deposited data

Results flagged for a closer look

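Single arrays stood apart from the other 3 of their group in 5 of 26 checks of a CCT probe set in a group by Dixon's 95% criterion for 4 samples, and chance flags about 1 in 20. For Cct5 both tested probe sets had such an array, 93295_at at 7508.5 on subconfluent replicate 4 and 161514_at at 703 on confluent replicate 1. Cct3 on 161238_f_at was low on confluent replicate 1, at 661.4. The others were on probe sets under the signal minimum, Tcp1 162443_at at 54 on confluent replicate 2 and Cct6a 160459_r_at at 42.3 on subconfluent replicate 1.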

How the results depend on the processing

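The count of CCT probe sets that were higher, 1 in the unpaired fit, depended on the setting, and no setting called any lower. It was 0 without a filter on low signal, with quantile normalization, without the variance trend and in chip lot C alone, where 2 subconfluent arrays stood against 1 confluent. It was 3 with the lot as a fixed block and with array weights, 4 with the lot as a random block and 4 with the replicate block, and ran from 0 to 5 when single arrays or experiments were left out, highest in the paired fit without experiment 2. The count over all probe sets, 409, was 208 without the filter, 5 in lot C alone, 683 with lots as a fixed block, 938 with it as a random block, 1276 with the replicate block and 642 with array weights, and ran from 98 to 1270 without single arrays or experiments. The cause of these changes was not tested. The median of the subunits, 0.42, was 0.55 with the lot as a fixed block and 0.63 within lot A (1 array against 1), and moved by less than the replicate spread of 0.14 in the other settings. All 7 subunits with a positive difference kept its sign in every setting, while Cct2 ranged from -0.19 to 0.46. With another probe set for Cct3, an alternative chosen after seeing the data, the median stayed at 0.42.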
